A study of Mus musculus with 4 samples.

Results

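Small nucleolar RNAs (snoRNAs) and small Cajal body RNAs were compared between PD100 and PD800 cells of the mouse embryonic stem cell line DKO741. The members were chosen by name and by level: all genes whose symbol begins with *Snord*, *Snora* or *Scarna* and whose expected count, the number of read pairs that RSEM assigned to the gene, averaged at least 10 over the 4 libraries. By symbol 149 of the 53379 genes in the files matched, and 28 of them reached that mean: 5 of 99 box C/D genes (*Snord*), 19 of 41 box H/ACA genes (*Snora*) and 4 of 9 Cajal body genes (*Scarna*). The mean count was used only to choose the members and is not a finding. The 3 members nearest above the limit were *Snora15* (mean of 13.5), *Snora68* (19.4) and *Snora43* (24.5), and the 3 genes nearest below it were *Snora70* (9.02), *Snora62* (7.50) and *Snora41* (7.25).

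All cells were *Terc*-/-, one line derived from E14 cells by targeting one allele of the telomerase RNA gene after the other, so that both groups lack telomerase RNA. The groups were PD100 (population doubling 100, pre-ALT, before telomeres were rebuilt without telomerase) and PD800 (population doubling 800, post-ALT), with 2 libraries each that the study describes as biological duplicates of cells grown without feeders for the experiment. The labels give the material as total RNA and the study describes mRNA sequencing, and no other line, time point or *Terc* wild-type cell was analysed here. *Terc*, itself a box H/ACA RNA of the Cajal body kind, was counted once in PD100 replicate 1 and not at all in PD100 replicate 2 or in PD800, under a floor of 3 counts that covers counting error only.

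Most snoRNAs of vertebrates are cut out of the introns of other genes. Box C/D RNAs carry the short boxes C and D near their ends, bind fibrillarin (*Fbl*), *Nop56*, *Nop58* and *Snu13*, and guide 2′-O-methylation of ribosomal RNA. Box H/ACA RNAs end a few bases after the letters ACA, bind dyskerin (*Dkc1*), *Nhp2*, *Nop10* and *Gar1*, and guide pseudouridylation. Cajal body RNAs have either or both structures and act on the RNAs of the spliceosome. A few snoRNAs are needed for the cutting of the ribosomal RNA precursor rather than for its modification.

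The box C/D members are shown first because they are the long exceptions in a class whose other genes held almost no counts. Sequences are from GENCODE M21 on GRCm38 (mm10) and are written 5′ to 3′ in DNA letters. Capitals mark a box C (TGATGA, looked for in the first 30 bases) and a box D (CTGA, in the last 30 bases). *Snord118* is the U8 RNA, needed for the maturation of the large ribosomal subunit, and *Snord22* is the U22 RNA, needed for that of the small subunit.
Snord17 (chr2:144265979-144266216, minus strand, intron of *Snx5*): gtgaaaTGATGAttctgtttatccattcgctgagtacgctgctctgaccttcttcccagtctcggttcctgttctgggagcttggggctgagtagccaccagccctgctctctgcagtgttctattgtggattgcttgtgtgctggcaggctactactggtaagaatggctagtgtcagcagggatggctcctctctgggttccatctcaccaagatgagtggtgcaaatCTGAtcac
Snord15a (chr7:99482785-99482932, minus strand, intron of *Rps3*): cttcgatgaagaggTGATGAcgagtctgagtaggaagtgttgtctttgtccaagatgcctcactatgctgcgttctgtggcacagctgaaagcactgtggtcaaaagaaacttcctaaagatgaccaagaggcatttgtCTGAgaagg
Snord15b (chr7:99479563-99479707, minus strand, overlapping an annotated *Rps3* exon): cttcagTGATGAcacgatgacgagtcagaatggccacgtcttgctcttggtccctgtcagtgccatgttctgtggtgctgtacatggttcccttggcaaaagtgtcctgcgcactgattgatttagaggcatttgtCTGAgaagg
Snord22 (chr19:8725866-8725991, plus strand, overlapping an annotated *Snhg1* exon): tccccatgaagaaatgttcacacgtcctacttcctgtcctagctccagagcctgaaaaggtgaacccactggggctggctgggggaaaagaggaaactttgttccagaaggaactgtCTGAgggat
Snord118 (chr11:69073427-69073561, plus strand, with no host gene in the annotation): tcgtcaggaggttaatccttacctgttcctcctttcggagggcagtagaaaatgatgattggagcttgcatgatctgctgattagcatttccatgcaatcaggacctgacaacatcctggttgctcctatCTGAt
Both boxes in this exact spelling were present in 3 of the 5 box C/D members and in 68 of the 94 other box C/D genes. The search was for these letters on the transcribed strand only, and their absence says nothing about other spellings.

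The next sequences are those of the H/ACA type on which the results turn: the most abundant pair, the member with the lowest fold change and the only member that was called. Capitals mark ACA when it stands exactly 3 bases before the end.
Snora73a (chr4:132352775-132352979, minus strand, overlapping an annotated *Snhg3* exon): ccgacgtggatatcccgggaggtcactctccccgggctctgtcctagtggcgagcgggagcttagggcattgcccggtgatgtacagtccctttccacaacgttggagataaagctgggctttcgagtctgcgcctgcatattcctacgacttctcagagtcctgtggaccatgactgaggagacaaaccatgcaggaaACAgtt
Snora73b (chr4:132352322-132352526, minus strand, intron of *Snhg3*): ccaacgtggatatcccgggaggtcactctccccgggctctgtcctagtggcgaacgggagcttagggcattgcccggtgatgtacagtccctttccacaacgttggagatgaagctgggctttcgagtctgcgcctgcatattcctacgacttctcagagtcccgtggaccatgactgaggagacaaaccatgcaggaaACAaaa
Snora21 (chr11:97781639-97781775, minus strand, intron of *Rpl23*): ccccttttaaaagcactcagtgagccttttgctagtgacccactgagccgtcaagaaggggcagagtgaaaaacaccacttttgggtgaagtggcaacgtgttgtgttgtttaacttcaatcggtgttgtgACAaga
Scarna13 (chr12:105031075-105031349, minus strand, intron of *Snhg10*): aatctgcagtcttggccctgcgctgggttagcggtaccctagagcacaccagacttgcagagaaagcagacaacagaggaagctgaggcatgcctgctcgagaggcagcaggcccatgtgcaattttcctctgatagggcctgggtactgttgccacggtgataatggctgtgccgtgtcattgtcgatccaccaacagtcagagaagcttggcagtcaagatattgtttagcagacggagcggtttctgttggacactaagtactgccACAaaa
*Snora73a* and *Snora73b*, copies of the U17 RNA that acts in ribosomal RNA processing, matched at 198 of 205 bases (96.6%) with 7 mismatches and no gap, so how their reads were divided is uncertain. ACA at this position was found in 14 of 19 box H/ACA members and in 20 of the 22 other box H/ACA genes.

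No gene of at most 120 bases reached the mean count that defined a member. The paired reads were each longer than most box C/D RNAs, and RSEM counts a fragment only when it lies inside the annotated transcript. Of the 149 genes, 96 were at most 120 bases long and 94 of these were box C/D genes. Of these 96 genes, 90 had a count of 0 in every library, and together they held 12.0 counts over all libraries. RSEM gave 92 of them an effective length, the number of positions at which a fragment could start, of 0 in every library. The 17 copies of *Snord116*, each 94 bases long, were among them and had no count. Counts near 0 for genes with such an effective length do not measure the level of the RNA. Among the 53 genes over 120 bases, 28 were members, including all 5 box C/D genes of that size and all 10 genes over 150 bases, while 7 were at 0 in every library. The class called box C/D here is therefore the longest 5 of 99 genes and cannot stand for the class.

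**Figure D1:**
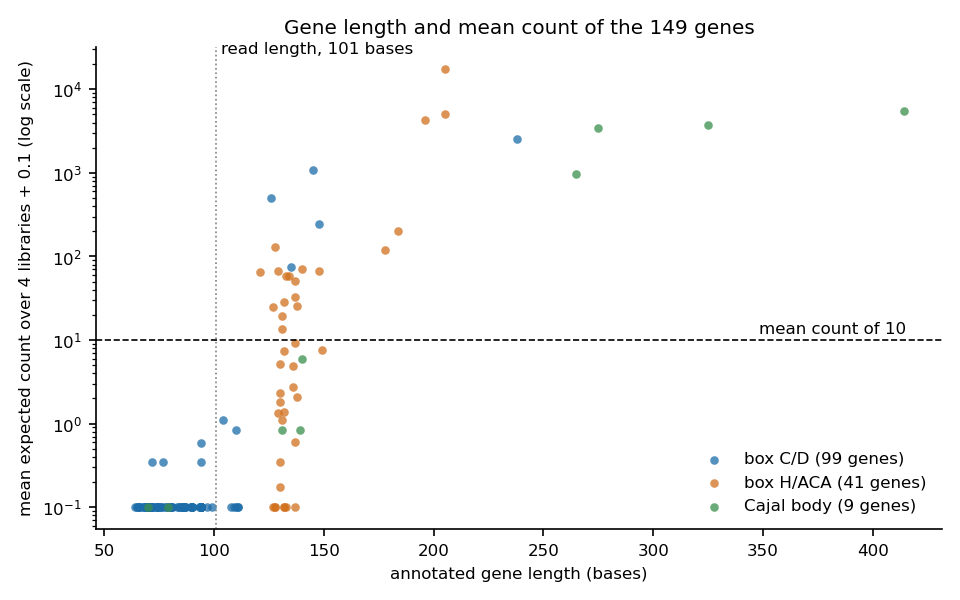
Annotated gene length in bases against mean expected count over the 4 libraries, plus 0.1, on a log axis, for all 149 genes by class; the dashed line is the mean count of 10 and the dotted line the length of 1 read. None of the 96 genes up to 120 bases reaches the dashed line, and all 10 genes over 150 bases lie above it.

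The deposited libraries held 32454121 to 38492149 expected counts, of which the members took 0.105% and 0.168% in PD100 replicates 1 and 2 and 0.123% and 0.131% in PD800 replicates 1 and 2. The PD100 replicates stood apart from each other for these RNAs. In normalised read counts (CPM, counts scaled to library size with TMM factors), 25 of the 28 members were higher in PD100 replicate 2 than in replicate 1, with a median log2 difference of 0.68, against -0.00 over all 19148 tested genes. A difference of more than 2-fold in that direction was seen for 9 members (32.1%) and for 2.18% of all tested genes. The PD800 replicates were closer, with a median log2 difference of 0.26 and 22 members higher in replicate 2. The log2 differences in this paragraph include a small count added to each value. Without it the PD100 median was 0.71 over 27 members. PD100 replicate 2 was the highest of the 4 libraries for 18 members, among them all 5 box C/D members.

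The fragments of PD100 replicate 2 were the shortest, with a mean implied by RSEM's effective lengths of 148 bases against 170 in PD100 replicate 1 and 163 and 162 in PD800 replicates 1 and 2. A gene of 137 bases accordingly had an effective length of 9.97 in PD100 replicate 2 and of 6.37, 7.06 and 7.80 in the others. On the TPM scale, which the authors' pipeline divides by effective length, 14 of 28 members were higher in PD100 replicate 2 and the median log2 difference over the 27 members with a value was 0.03, against -0.13 over all tested genes. The 18 box H/ACA members with a value had a median log2 difference of 0.69 in CPM and -0.02 in TPM. The 5 box C/D members had 1.46 in CPM and still 0.93 in TPM, with 4 of 5 higher in replicate 2. By length and over both classes, the 6 members over 150 and up to 250 bases had a median of 0.61 in TPM, all higher in replicate 2, and the 17 members of up to 150 bases had -0.09. The part of fragment length in the difference between the replicates was not tested.

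**Figure D2:**
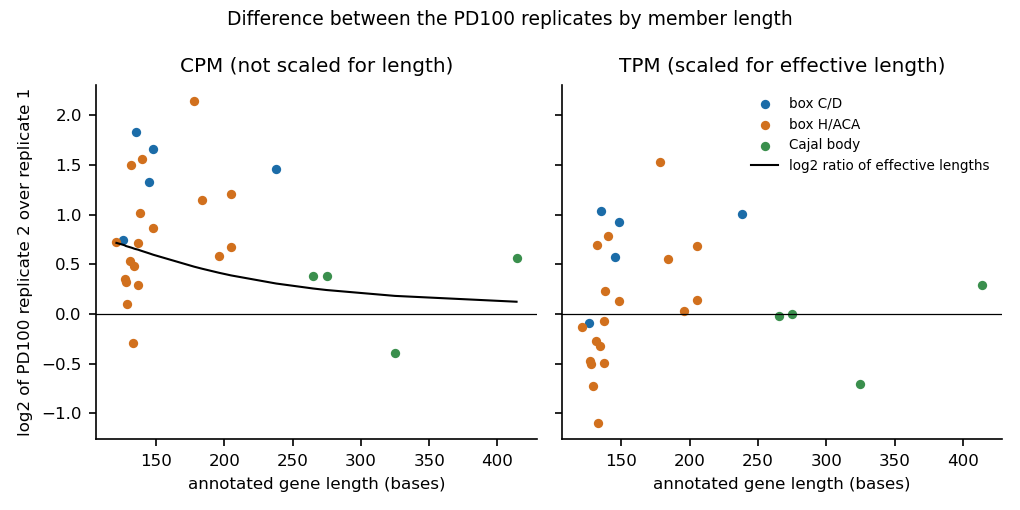
Log2 ratio of PD100 replicate 2 over replicate 1 against annotated gene length for the members with a count in both, in CPM (left) and TPM (right); the black line is the log2 ratio of the effective lengths. In CPM nearly all points lie above 0, with a median of 0.71 over 27 members, and in TPM they lie on both sides, with a median of 0.03.

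By TPM, which allows levels of different genes to be compared, *Snora73a* was the most abundant member, at 7183 and 7926 in PD100 replicates 1 and 2 and 5460 and 5028 in PD800 replicates 1 and 2. *Snord22* had 2931, 2756, 1981 and 2054 in the same libraries, and *Snora74a* had 1669, 1700, 1958 and 2002. *Snora73b* lay between 1382 and 2688 and *Snord15b* between 1570 and 2399. The ranges of *Snord22*, *Snora74a*, *Snora73b* and *Snord15b* overlapped, so their order was not resolved. TPM divides by effective lengths of only a few positions for the shorter members and is then imprecise. In counts, *Snora73a* and *Snora73b* made up 80.8% of all reads of box H/ACA members, and *Snord17* made up 57.6% of those of box C/D members.

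PD800 was then compared with PD100 to ask which of these RNAs differed between post-ALT and pre-ALT cells. A single member was called: *Scarna13* was 2.61-fold higher in PD800. All 28 members were tested in edgeR's quasi-likelihood fit of the whole table, and a call needed both an adjusted p under 0.01 and more than a 2-fold change. In that fit 15.1% of all tested genes were called, 6.28% as higher and 8.81% as lower, against 1 member higher and 0 lower. With no fold threshold, 2 members had an adjusted p under 0.01 with all libraries, both higher and both Cajal body RNAs, against 13.1% of all genes higher and 15.4% lower. The count moved with the libraries and the filter. Without PD100 replicate 1 it was 3 higher and 8 lower, all 5 box C/D members among the latter, beside 20.9% and 21.8% of all genes. Without PD100 replicate 2 it was 7 higher and 0 lower, beside 18.7% and 21.9%. When the replicate number entered the fit as a block it was 4 higher, among them *Scarna2* and *Snora74a*, and 2 lower, *Snord118* and *Snora21*, beside 20.1% and 21.5%. With no expression filter it was 4 higher and 6 lower, beside 12.3% and 13.6%. At an adjusted p under 0.05 there were 3, the third being *Snora21*, beside 8739 of 19148 tested genes. Both PD800 libraries lay above both PD100 libraries in CPM for 7 members (25.0%) and below them for 3 (10.7%), against 37.4% and 36.3% of all tested genes. For a single gene, the smallest p that an exact two-sided permutation of 2 against 2 libraries allows is 0.33, and the adjusted p-values therefore depend on the variance that edgeR shares across genes.

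*Scarna13*, a Cajal body RNA with box H/ACA structure, measured 48.6 and 63.2 CPM in PD100 replicates 1 and 2 and 142 and 150 CPM in PD800 replicates 1 and 2. The groups did not overlap, and each was tight (55.9 ± 10.3 CPM in PD100 and 146 ± 5.81 CPM in PD800, SD, n = 2). Its log2 fold change was 1.38 (SE 0.13, adjusted p = 0.000604 by edgeR) and lay between 1.21 and 1.56 when any one library was left out. When the 2-fold threshold was tested within the model, the adjusted p was 0.0391. TPM gave the same picture, with 346 and 346 in PD100 and 795 and 785 in PD800. *Mir3069*, annotated inside *Scarna13*, shares its exon, so reads of the microRNA precursor cannot be told apart from those of *Scarna13*.

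*Scarna13* lies on chromosome 12 within a stretch of genes that were mostly higher in PD800. Of the 40 tested genes nearest to it, 35 had a positive log2 fold change, 19 were called higher and 1 was called lower, and their median was 1.01. They reached up to 2394 kb away and included its host *Snhg10*, a long noncoding RNA, at 0.941 and 0.779 CPM in PD100 replicates 1 and 2 and 1.84 and 1.65 CPM in PD800 replicates 1 and 2 (log2 fold change 1.01, SE 0.23, adjusted p = 0.0150 by edgeR, not called). It was called under the replicate block (adjusted p = 0.00523 by edgeR), with no expression filter and without PD100 replicate 1. Over the whole of chromosome 12 the median log2 fold change of 755 tested genes was 0.36 and 14.7% were called higher. Over all tested genes the median was 0.01, with 6.28% called higher and 8.81% called lower. The neighbours were looked at after the value of *Scarna13* was known, and a part of the region in its change was not tested.

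*Scarna10*, the U85 RNA with both box structures, rose by less than 2-fold with all libraries. It measured 87.3 and 66.7 CPM in PD100 replicates 1 and 2 and 144 and 127 CPM in PD800 replicates 1 and 2, without overlap (log2 fold change 0.82, SE 0.14, adjusted p = 0.00544 by edgeR). It was 1 of 3 members that were lower in PD100 replicate 2 than in replicate 1. Its host *Ncapd2*, a condensin gene, had 160 and 177 CPM in PD100 and 209 and 215 CPM in PD800 (log2 fold change 0.33, adjusted p = 0.0201 by edgeR), and *Scarna10* overlaps an annotated exon of it. The 40 tested genes nearest to *Scarna10* had a median log2 fold change of 0.56. The adjusted p of *Scarna10* was above 0.01 in 4 of 14 other settings, among them RSEM's effective length as an offset (0.0207) and limma on log2(TPM + 1), which gave a log2 fold change of 0.62 and an adjusted p of 0.132. Without PD100 replicate 1 its log2 fold change was 1.03 and it was called.

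*Scarna2*, which has no host gene, measured 106 and 157 CPM in PD100 replicates 1 and 2 and 180 and 189 CPM in PD800 replicates 1 and 2. The groups did not overlap, but the difference did not pass the test (log2 fold change 0.48, SE 0.18, adjusted p = 0.0683 by edgeR). Without PD100 replicate 2 the log2 fold change of *Scarna2* was 0.77. The 40 tested genes nearest to *Scarna2* had a median log2 fold change of 0.51, and 35 of them were positive. A part of this region in the change of *Scarna2* was not tested. *Scarna6*, inside an intron of the autophagy gene *Atg16l1*, measured 24.8 and 32.3 CPM in PD100 and 23.0 and 28.9 CPM in PD800. Its groups overlapped and its log2 fold change of -0.14 (SE 0.16) did not pass the test. Summed over the 4 Cajal body members, the level was 267 and 319 CPM in PD100 replicates 1 and 2 and 488 and 495 CPM in PD800 replicates 1 and 2, a ratio of 1.68 between the group means, in which *Scarna2*, *Scarna10* and *Scarna13* have the larger weights.

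**Figure D3:**
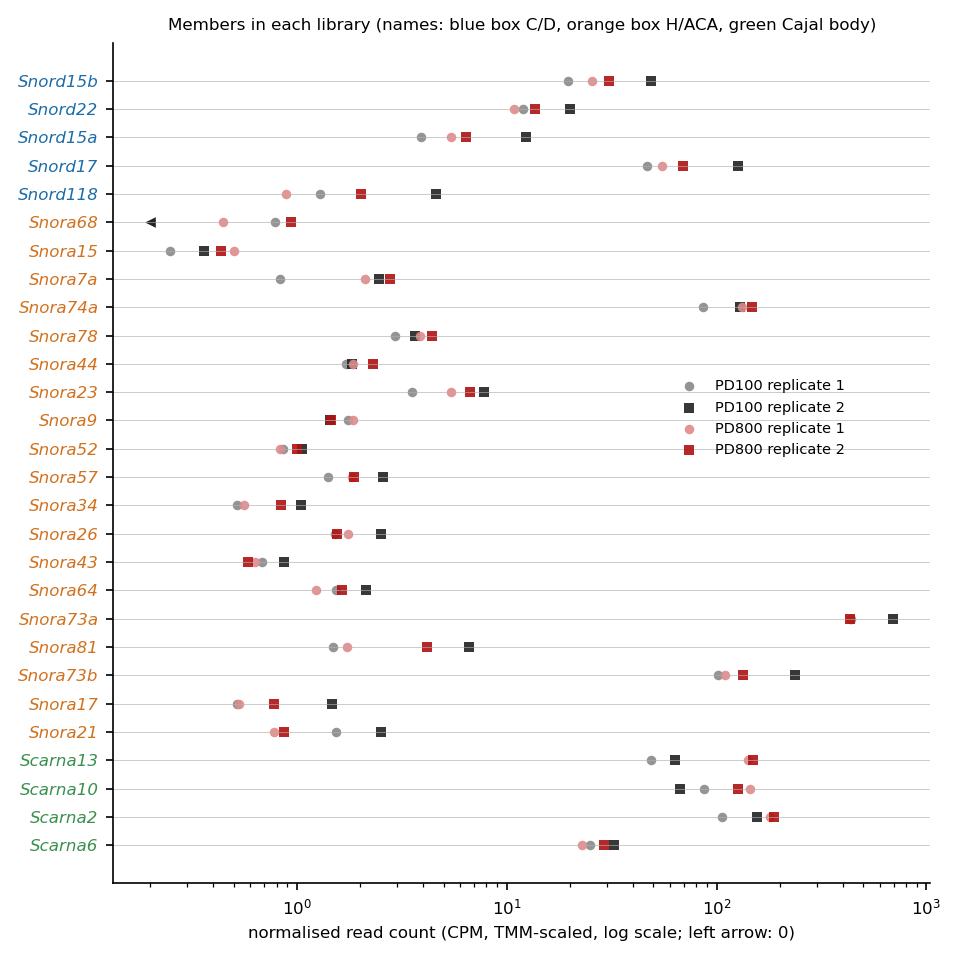
Normalised read count (CPM, log axis) of each member in each library, with PD100 in grey and black and PD800 in pink and red, ordered within each class by fold change. The 2 PD800 points of *Scarna13* (142 and 150 CPM) stand apart from its PD100 points (48.6 and 63.2 CPM), while PD100 replicate 2 (black squares) is the highest library for all 5 box C/D members.

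None of the 5 box C/D members passed the test, and PD800 lay between the PD100 replicates for most of them. *Snord17* measured 46.4 and 127 CPM in PD100 replicates 1 and 2 and 55.0 and 69.0 CPM in PD800 replicates 1 and 2. *Snord15b* measured 19.5 and 48.9 CPM in PD100 and 25.4 and 30.9 CPM in PD800, and its neighbour in *Rps3*, *Snord15a*, 3.91 and 12.4 CPM in PD100 and 5.43 and 6.41 CPM in PD800. For these 3 both PD800 values fell inside the range of the PD100 replicates. *Snord22* measured 12.0 and 20.1 CPM in PD100 and 10.8 and 13.6 CPM in PD800. *Snord118* measured 1.29 and 4.58 CPM in PD100 and 0.890 and 2.02 CPM in PD800, with only 32 to 153 counts a library. These last 2 had PD800 replicate 1 as their lowest library and PD100 replicate 2 as their highest, so their groups overlapped too in CPM. In TPM the groups of *Snord22* did not overlap, with 2931 and 2756 in PD100 and 1981 and 2054 in PD800 (limma on log2(TPM + 1), log2 fold change -0.49, adjusted p = 0.0756).

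The box C/D log2 fold changes ran from -1.0 (*Snord118*, SE 0.65) to -0.28 (*Snord15b*, SE 0.39), with a median of -0.45 beside 0.01 over all tested genes, and the smallest adjusted p was 0.250. The sign rested on PD100 replicate 2. Without it the values were 0.40 for *Snord17*, 0.50 for *Snord15b*, 0.57 for *Snord15a*, 0.14 for *Snord118* and -0.00 for *Snord22*, with a median of 0.40. Without PD100 replicate 1 the median was -1.04, and *Snord17*, *Snord15a* and *Snord118* were called lower. The summed box C/D level was 83.1 and 213 CPM in PD100 replicates 1 and 2 (148 ± 92.1, SD, n = 2) and 97.5 and 122 CPM in PD800 replicates 1 and 2 (110 ± 17.2). No direction between PD100 and PD800 could be read from the CPM of these RNAs.

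The 19 box H/ACA members likewise gave no call, with 8 positive and 11 negative log2 fold changes and a median of -0.09. The most abundant, *Snora73a*, measured 437 and 695 CPM in PD100 replicates 1 and 2 and 432 and 432 CPM in PD800 replicates 1 and 2. Both PD800 values lay below PD100, but the first PD100 value was nearly the same as they were (log2 fold change -0.39, SE 0.21, adjusted p = 0.178 by edgeR). In TPM, given above, the groups stood further apart, and limma on log2(TPM + 1) gave a log2 fold change of -0.53 with an adjusted p of 0.153. *Snora73b* measured 102 and 236 CPM in PD100 and 109 and 134 CPM in PD800, with overlap (-0.47, SE 0.36). *Snora74a*, the U19 RNA, measured 86.5 and 129 CPM in PD100 and 133 and 148 CPM in PD800, where both libraries lay above PD100 (0.38, SE 0.19, adjusted p = 0.150 by edgeR).

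*Snora23* and *Snora78* were the next box H/ACA members by CPM, which is not scaled for length. *Snora23*, inside the importin gene *Ipo7*, measured 3.54 and 7.82 CPM in PD100 and 5.40 and 6.69 CPM in PD800, both PD800 values inside the PD100 range (0.10, SE 0.36). *Snora78*, inside *Snhg9*, measured 2.92 and 3.66 CPM in PD100 and 3.87 and 4.42 CPM in PD800, above PD100 in both libraries (0.34, SE 0.18, adjusted p = 0.185 by edgeR). *Snora78* lies opposite *Rps2*, and whether the counting used strand is not given in the sources used here, so their reads may not be fully told apart.

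*Snora21*, named after its value was seen, had the lowest fold change of all members. It measured 1.54 and 2.52 CPM in PD100 replicates 1 and 2 and 0.779 and 0.871 CPM in PD800 replicates 1 and 2, from 62, 84, 28 and 28 counts. The groups did not overlap (log2 fold change -1.29, SE 0.31, adjusted p = 0.0186 by edgeR), and the gene missed the threshold of 0.01. It was called with limma on log2(TPM + 1) (-1.38, adjusted p = 0.00172), without PD100 replicate 1 and in 3 other settings, and it stayed negative in all. On the TPM scale it stood at 187 and 178 in the PD100 replicates, which were then close to each other, and at 71.0 and 68.0 in the PD800 replicates. Its host *Rpl23*, a ribosomal protein gene, did not pass the threshold of 0.01 either (700 and 726 CPM in PD100 and 570 and 567 CPM in PD800, log2 fold change -0.33, adjusted p = 0.0185 by edgeR).

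Of the remaining 13 box H/ACA members, the largest positive value belonged to *Snora68*, which the text names only for its instability. Its counts were 31.6, 0, 15.9 and 30.1 in PD100 replicates 1 and 2 and PD800 replicates 1 and 2, and its log2 fold change of 0.70 had an SE of 1.04. *Snora15*, nearest to the mean count that defined a member, had 10, 12, 18 and 14 counts, and *Snora43* 27.5, 29.0, 22.7 and 18.8. *Snora7a* was called higher only when PD100 replicate 2 was left out (1.51 against 0.59 with all libraries). Summed, the box H/ACA members reached 647 and 1098 CPM in PD100 replicates 1 and 2 (873 ± 319, SD, n = 2) and 701 and 745 CPM in PD800 replicates 1 and 2 (723 ± 31.8).

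The classes did not separate beyond this spread. Of the reads of box C/D and box H/ACA members together, the box C/D members took 11.4% and 16.3% in PD100 replicates 1 and 2 and 12.2% and 14.1% in PD800 replicates 1 and 2, so that the PD800 shares lay between the PD100 shares. Without PD100 replicate 2, 14 of the 28 log2 fold changes took the other sign, 4 of them box C/D, 9 box H/ACA and 1 Cajal body, and 21 were positive in place of 11. With RSEM's effective length as an offset, the medians were -0.25 for box C/D and 0.04 for box H/ACA, and *Scarna13* (1.43, adjusted p = 0.000377 by edgeR) was again the only call.

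**Figure D4:**
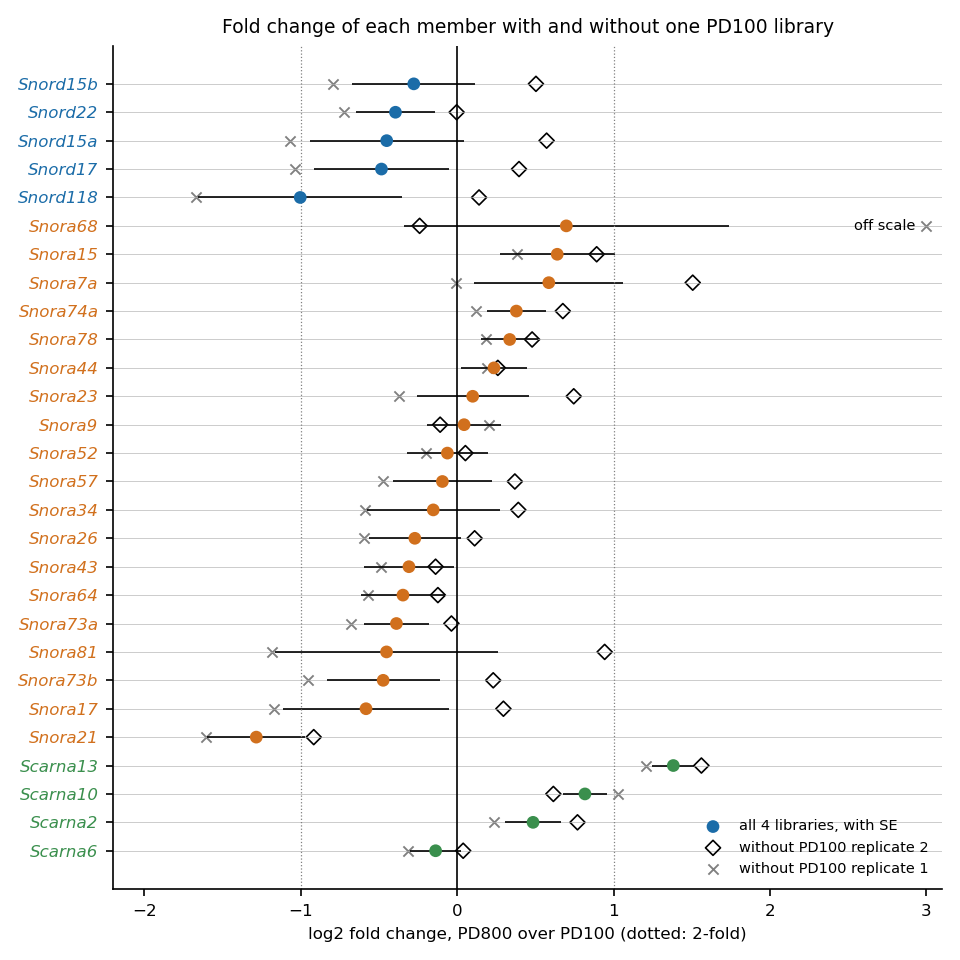
Difference between PD800 and PD100 of each member on the log2 scale (filled points, bars are 1 SE from edgeR), and the same without PD100 replicate 2 (open diamonds) or without PD100 replicate 1 (crosses); 1 cross, for *Snora68*, is off scale because its remaining PD100 count is 0. The diamonds and crosses of the box C/D members lie on opposite sides of 0 or, for *Snord22*, at 0 and below it, while *Scarna13* stays above 1 in all 3.

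Of the 28 members, 23 lie inside another gene on the same strand, 14 overlapping an annotated exon of it and 9 within an intron, and 5 have no host. An exon overlap means that reads of the host could be counted for the member and the reverse. Counted over 18 different tested hosts, 14 had a negative and 4 a positive log2 fold change, from -0.87 to 1.01 with a median of -0.14, and none was called in this fit, although *Snhg10* was in the 3 other fits named above and *Dancr* in 1, limma on log2(TPM + 0.1). An adjusted p under 0.01 was reached by 3 of these hosts, all lower in PD800 (edgeR), against 15.4% of all genes. Hosts higher in PD800 also passed in other fits. The count was 3 higher and 6 lower under the replicate block, beside 20.1% and 21.5% of all genes. With no expression filter it was the same, beside 12.3% and 13.6%. With DESeq2 it was 1 higher and 6 lower, beside 13.1% and 15.9%. It moved with any one library left out. *Snhg1*, a noncoding RNA that carries *Snord22*, was one of the 3 that passed with all libraries. It had 191 and 197 CPM in PD100 and 133 and 130 CPM in PD800 (log2 fold change -0.56, adjusted p = 0.00161 by edgeR). The others, named after their values were seen, were *Dancr* (host of *Snora26*, -0.87) and the translation factor gene *Eif4a2* (host of *Snora81*, -0.78).

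*Snx5*, host of *Snord17*, had 291 and 318 CPM in PD100 and 278 and 281 CPM in PD800, so the host replicates differed far less than the snoRNA inside it. *Rps3*, host of *Snord15a* and *Snord15b*, had a log2 fold change of -0.09, and *Ipo7* and *Atg16l1* had -0.15 and -0.14, none passing the test. *Snhg3*, whose transcript carries *Snora73a* and *Snora73b*, had 11.8 and 8.96 CPM in PD100 and 6.70 and 5.81 CPM in PD800 (-0.73, adjusted p = 0.0141 by edgeR), and both lie also inside *Rcc1*. *Snora73a* had 37.1 and 77.5 times the CPM of *Snhg3* in PD100 replicates 1 and 2 and 64.5 and 74.3 times in PD800 replicates 1 and 2. *Snhg9* did not pass the expression filter, and the host annotated for *Snora74a* was not analysed here.

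**Figure D5:**
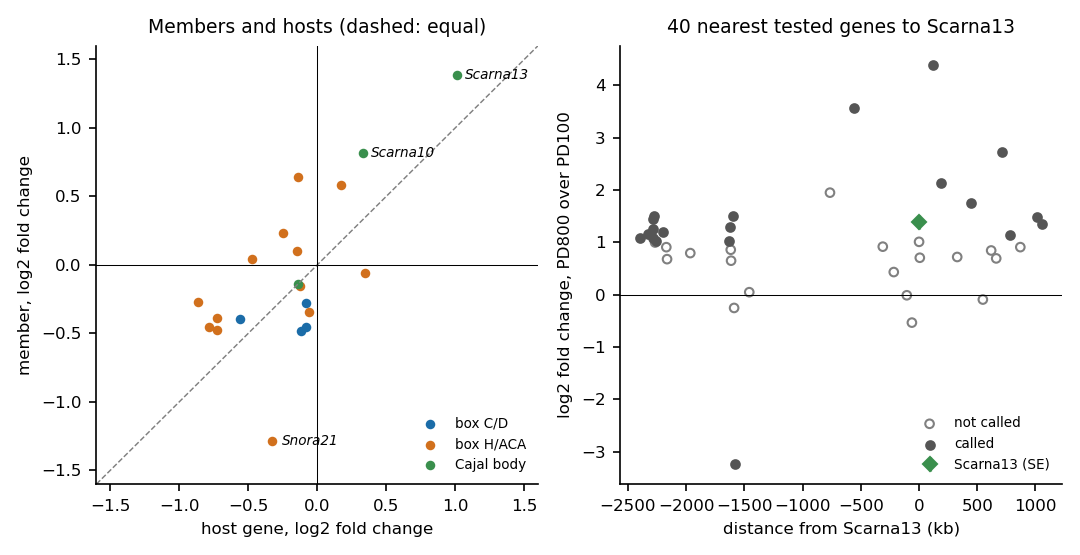
Left, log2 fold change of PD800 over PD100 of 20 members against that of their host genes, with the dashed line where they are equal. Right, log2 fold change of the 40 tested genes nearest to *Scarna13* by distance in kb, filled where called, with *Scarna13* (diamond, bar 1 SE) at 1.38 among neighbours whose median is 1.01.

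The proteins that bind and assemble these RNAs were read from lists of 45 tested genes, in which 1 gene was called (Benjamini-Hochberg over all genes), beside 15.1% of all genes, and 9 had an adjusted p under 0.01 with all libraries, all lower in PD800, against 15.4% of all genes lower. Under the same threshold the replicate block gave 2 higher and 12 lower, beside 20.1% and 21.5% of all genes. With no expression filter 12 were lower and none higher, beside 13.6% and 12.3%. The count moved with any one library left out. The median over the 45 was -0.11. None of the 4 core proteins of box C/D particles passed the test, with log2 fold changes of -0.04 for *Fbl*, -0.18 for *Nop56*, 0.14 for *Nop58* and -0.06 for *Snu13*. Of the 4 box H/ACA core proteins, *Nhp2* fell from 252 and 274 CPM in PD100 to 177 and 182 CPM in PD800 (-0.55, SE 0.08, adjusted p = 0.00279 by edgeR). *Dkc1*, the pseudouridine synthase, had 131 and 140 CPM in PD100 and 159 and 160 CPM in PD800 (0.23, adjusted p = 0.0468), *Gar1* had 0.27 and *Nop10* 0.21.

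Among 11 tested assembly factors, 4 fell past an adjusted p of 0.01 and none rose, beside 15.4% of all genes lower and 13.1% higher. The count that fell was 6 under the replicate block, beside 21.5% of all genes, and 6 with no expression filter, beside 13.6%. With effective length as an offset it was 2, beside 11.7%. It moved with any one library left out. *Naf1*, which loads newly made box H/ACA RNAs with the core proteins, had 49.6 and 45.8 CPM in PD100 and 24.6 and 24.3 CPM in PD800 (-0.96, SE 0.08, adjusted p = 0.000362 by edgeR), just short of 2-fold. *Nolc1* (-0.66), which binds both kinds of particle, and the box C/D assembly factors *Znhit6* (-0.68) and *Nufip1* (-0.36) were the others. Among 14 Cajal body and snRNP biogenesis genes, 3 fell past an adjusted p of 0.01, beside 15.4% of all genes. Under the replicate block 3 fell and 1 rose, beside 21.5% and 20.1%. The count moved with any one library left out. The 3 that fell with all libraries belong to the SMN complex, which builds spliceosomal particles. Its other 4 genes on the list, *Smn1* (-0.22), *Gemin2* (-0.34), *Gemin7* (-0.26) and *Gemin8* (-0.09), did not pass the test. *Gemin6* was called, at 29.9 and 31.9 CPM in PD100 and 13.3 and 15.0 CPM in PD800 (-1.13, SE 0.10, adjusted p = 0.000392 by edgeR), and *Gemin5* (-0.77) and *Gemin4* (-0.59) fell by less. Of 12 processing and turnover enzymes, 1 passed an adjusted p of 0.01 with all libraries, beside 15.4% of all genes lower. It was *Dis3*, a nuclease of the exosome (-0.89). The count was 1 higher and 2 lower under the replicate block, beside 20.1% and 21.5% of all genes. It also moved when either PD100 replicate was left out.

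Of the 18 tested noncoding host RNAs on the list, 2 were called, both higher, beside 6.28% of all genes called higher and 8.81% called lower. They were *Rian* (267 and 238 CPM in PD100, 1085 and 1043 CPM in PD800, log2 fold change 2.07) and *Meg3* (2.09), neighbours in an imprinted cluster on chromosome 12, and no member lies in either of them. *Gas5* (-0.54), *Snhg1* and *Snhg6* (-0.69) fell past an adjusted p of 0.01 in edgeR, as did 15.4% of all genes. Under the replicate block 7 fell and 3 rose, beside 21.5% and 20.1% of all genes. With DESeq2 or with no expression filter 6 fell, beside 15.9% and 13.6%. The count moved with any one library left out. The 15 tested gene IDs of other structured RNAs had log2 fold changes from -1.75 to 2.61. Summed over all 20 IDs of that list, PD100 held 21322 to 28518 CPM and PD800 33679 to 36969 CPM. With all libraries 1 ID had an adjusted p under 0.01, lower in PD800, beside 15.4% of all genes lower. Under the replicate block 1 was higher and 6 were lower, beside 20.1% and 21.5%. *Rmrp* (0.19) and *Rpph1* (0.06), the RNAs of the ribonucleases MRP and P, did not pass the test. Of the U3 RNA genes, 1 copy of *Rnu3a* had an adjusted p under 0.01 (-0.91), but *Rnu3b2*, *Rnu3b3* and *Rnu3b4* held the same values in pairs, and the level of any single copy is uncertain.

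Cell type markers also differed between the groups. In the study's single-cell RNA sequencing, PD100 and PD800 cells formed distinct populations with high homogeneity in each. All 10 primitive endoderm markers were called lower in PD800, and of all tested genes 8.81% were called lower and 6.28% higher. The summed level of these markers was 2164 to 2513 CPM in PD100 and 168 to 177 CPM in PD800. Of 10 pluripotent cell markers 5 were called higher, with sums of 2086 to 2390 CPM and 4096 to 4193 CPM, and of 9 tested fibroblast markers 7 were called lower, with sums of 75.4 to 101.4 CPM and 22.0 to 23.4 CPM; *Lum* was at or near 0 in every library. In bulk RNA, fewer cells of a type and less RNA per cell cannot be told apart, and the part of these markers in the values of *Scarna13*, *Scarna10* or *Snora21* was not tested. The mitochondrial share of counts was 15.4% and 11.0% in PD100 replicates 1 and 2 and 17.7% and 16.0% in PD800 replicates 1 and 2.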

How the data were processed

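RNA of the PD100 and PD800 cells was sequenced as paired reads on an Illumina HiSeq instrument. Per the submitters' processing notes, the tools were STAR 2.5.3a, RSEM 1.3.0 and DESeq2 1.18.1, with build mm10; the annotation release is not given in the sources used here. The authors deposited an expected count for each gene and library, not scaled for depth and with reads that align to several genes divided between them, and TPM values, scaled for effective length.

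Of 53379 gene IDs, 53274 were found in GENCODE M21, including all 149 matched by symbol. A further 60 genes of GENCODE's snoRNA or scaRNA kind with other symbols and a mean count of at least 10, the U3 genes among them, are no members. A host was the shortest gene on the same strand that holds the whole RNA, small RNAs left out. The values of 1 host are not reported here. Rounded expected counts went into edgeR 4.0.16 (R 4.3.3) with filterByExpr (minimum count 10), TMM, the quasi-likelihood test and Benjamini-Hochberg adjustment over 19148 genes. Alternatives used DESeq2 1.42.0 and limma 3.58.1. The procedure was tested on simulated data.

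Members and lists were chosen with earlier results of these data known. Named are the 5 members of highest mean CPM per class, called members (up to 5 each way, and among those with a mean count of at least 100), all Cajal body members, the 3 genes on either side of the limit, hosts of the first 2 sets, *Terc*, and list genes that passed the threshold or form the particle cores. The replicate numbers come from the labels, which do not say that equal numbers share a culture. List genes were matched by symbol or, for those under older symbols, by gene ID; 2 of them were not matched. The authors' fold changes were not used.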

Additional observations from a re-analysis of the deposited data

How the results depend on the processing

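*Scarna13* was called in all 14 other fits at the same thresholds, with an adjusted p of at most 0.00291. The count of called members, 1 with all libraries, was 0 with the 2-fold threshold tested in the model or without members that share an exon (which drops *Scarna13*), 2 with limma on log2(TPM + 1) or log2(TPM + 0.1), 3 with no expression filter, 3 at an adjusted p under 0.05 with no fold threshold, and 1 to 7 with one library left out: 7 without PD100 replicate 1, 2 without PD100 replicate 2. With one library left out, the lone library of a group is assumed to vary like the other group. With the replicate number as a block, 2 members were called (*Scarna13* and *Snora21*), beside 3417 of 19148 tested genes. Deviations of same-numbered libraries correlated at 0.27 over all genes and 0.07 over the members, and with 2 pairs the pairing is undecided. The summed box C/D log2 ratio, -0.43, was 0.40 without PD100 replicate 2 and ran from -0.96 to 0.40 over the libraries left out, the box C/D median from -1.04 to 0.40, the box H/ACA median from -0.47 to 0.26 and the summed box H/ACA ratio from -0.60 to 0.16. Of the 45 protein genes, 1 was called with all libraries, 0 with the fold tested in the model and 3 with limma on either TPM scale. At an adjusted p under 0.05 with no fold threshold there were 17, beside 8739 of 19148 tested genes. The count of called protein genes also moved when PD100 replicate 2 was left out. The cause was not tested. The offset of effective lengths was chosen after seeing the data. For a gene of 137 bases the precision is limited by 6.37 to 9.97 start positions.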
